A study of Mus musculus with 4 samples.

Results

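SOX3 binding was examined around the 5 SOXB genes of the mouse, Sox1, Sox2, Sox3, Sox14 and Sox21, which were taken by name as members of the SOXB family from among 22368 protein-coding genes. Each gene was given the stretch that runs from its body for 200 kb to each side. It ended earlier where the body of the next protein-coding gene was reached, unless that body overlapped the gene's own. A region was a merged group of overlapping peaks from any of the 3 SOX3 ChIP-seq replicates, and 62 of the 51271 regions in the genome fell into these 5 stretches. The samples were NP (neural progenitor) cells, derived from the mouse embryonic stem cell line R1 by neural induction in N2B27, a medium without serum, for 4 days. All samples came from this 1 line, and no cells lacking SOX3 were among them. Chromatin of 3 biological replicates was immunoprecipitated with a goat antibody raised against human SOX3 (R&D hSOX3, AF2569), and an input sample of the same cells without antibody was the control for peak calling. The input reads were not analysed here. Peak lists record no RNA, so neither the NP identity of the cells nor the expression of the SOXB genes could be checked in these files.

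SOX proteins bind DNA through an HMG domain that recognises a short AT-rich sequence. The SOXB1 proteins SOX1, SOX2 and SOX3 are transcriptional activators that overlap in function and hold neural cells in the progenitor state, whereas the SOXB2 proteins SOX14 and SOX21 act mainly as repressors and favour differentiation. SOX proteins often bind beside a partner of the POU family on joined SOX/POU sequences, and binding near SOX genes bears on the question of whether the family regulates itself. Binding alone does not show that a region is an enhancer, and enhancer activity was not measured.

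The DNA under the leading regions is shown first, since the positions of the SOX and POU words in it recur below. At each gene, 300 bp around the middle of the stretch shared by the 3 replicates are given. They come from the region outside annotated exons whose lowest score percentile over the replicates was the highest. A percentile is the share of a list that scored lower. Any other such region with a joined SOX/POU word there is given as well. Where the shared stretch was shorter than 300 bp, as at Sox3 (160 bp), the window reached beyond it. Capitals mark exact matches to the words searched, on either strand. The SOX core was the 4 letters ACAA with an ending of AA, AG, TA or TG. The SOX word with A was AACAA, and the SOX word with G was GACAA, each with a last letter of A or T, and both overlap the core in the letters ACAA. The POU words were the octamer ATGCAAAT or ATGCTAAT and a longer word known as the joined SOX/POU word, which holds most of an octamer. Its SOX side fixes fewer letters than the SOX words do, so that a match need not hold ACAA or its complement TTGT, and those at Sox1 and Sox21 do not. The pair of half-sites TTGTNATGC, which overlaps the joined word, was added after the data were seen. All are plus-strand sequence of mm9, read from the NCBIM37 reference.
Sox1, 107.0 kb downstream of the start (chr8:12502338-12502637): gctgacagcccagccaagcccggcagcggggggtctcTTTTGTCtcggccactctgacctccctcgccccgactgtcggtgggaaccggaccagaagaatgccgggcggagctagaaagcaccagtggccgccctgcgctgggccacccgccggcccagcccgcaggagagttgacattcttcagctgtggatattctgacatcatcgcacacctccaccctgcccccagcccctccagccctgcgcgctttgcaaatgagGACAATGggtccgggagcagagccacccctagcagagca
Sox1, 108.8 kb downstream (chr8:12504227-12504526): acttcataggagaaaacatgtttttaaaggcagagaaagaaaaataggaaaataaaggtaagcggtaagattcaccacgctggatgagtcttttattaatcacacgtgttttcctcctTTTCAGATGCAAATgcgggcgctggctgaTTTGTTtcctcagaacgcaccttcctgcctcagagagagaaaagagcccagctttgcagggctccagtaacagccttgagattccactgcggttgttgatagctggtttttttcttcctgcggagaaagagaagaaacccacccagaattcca
Sox2, 4.01 kb downstream (chr3:34552824-34553123): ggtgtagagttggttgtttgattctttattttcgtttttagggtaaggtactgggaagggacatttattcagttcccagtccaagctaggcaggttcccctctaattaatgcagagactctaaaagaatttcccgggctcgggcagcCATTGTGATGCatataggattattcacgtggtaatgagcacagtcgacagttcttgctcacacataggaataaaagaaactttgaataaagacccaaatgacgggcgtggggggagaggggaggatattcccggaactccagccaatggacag
Sox3, 173 kb downstream (chrX:57972930-57973229): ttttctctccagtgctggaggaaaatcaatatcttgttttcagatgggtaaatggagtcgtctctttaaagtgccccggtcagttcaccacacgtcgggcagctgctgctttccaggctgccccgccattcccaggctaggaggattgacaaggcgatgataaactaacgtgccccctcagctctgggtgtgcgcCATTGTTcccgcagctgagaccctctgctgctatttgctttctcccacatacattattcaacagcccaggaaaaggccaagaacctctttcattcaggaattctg
Sox14, 105.3 kb downstream (chr9:99671212-99671511): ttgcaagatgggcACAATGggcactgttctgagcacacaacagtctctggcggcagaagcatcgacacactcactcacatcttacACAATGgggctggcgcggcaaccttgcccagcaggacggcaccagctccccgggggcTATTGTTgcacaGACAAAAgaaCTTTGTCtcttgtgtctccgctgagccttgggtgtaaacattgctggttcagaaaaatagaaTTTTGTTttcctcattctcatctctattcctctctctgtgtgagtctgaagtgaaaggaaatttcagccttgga
Sox14, 3.54 kb downstream (chr9:99772967-99773266): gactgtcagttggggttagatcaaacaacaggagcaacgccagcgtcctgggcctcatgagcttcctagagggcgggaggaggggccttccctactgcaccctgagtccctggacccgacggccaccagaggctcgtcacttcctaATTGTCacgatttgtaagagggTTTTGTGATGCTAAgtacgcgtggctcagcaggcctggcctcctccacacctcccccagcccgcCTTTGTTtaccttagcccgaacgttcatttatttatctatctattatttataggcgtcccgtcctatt
Sox21, 6.50 kb downstream (chr14:118629578-118629877): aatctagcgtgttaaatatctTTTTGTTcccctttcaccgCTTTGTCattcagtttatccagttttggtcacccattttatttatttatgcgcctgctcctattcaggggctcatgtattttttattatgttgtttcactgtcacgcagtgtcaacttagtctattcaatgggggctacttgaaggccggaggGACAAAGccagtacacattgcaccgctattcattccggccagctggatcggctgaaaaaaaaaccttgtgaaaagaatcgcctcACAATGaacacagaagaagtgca
Sox21, 60 bases of the same region beside that window (chr14:118629543-118629602): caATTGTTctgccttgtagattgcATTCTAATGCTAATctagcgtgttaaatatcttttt
The last was added after the data were seen, because the joined word of the Sox21 region begins 11 bases before the 300 bp window.

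Of the 62 SOXB regions, 16 held a peak of each replicate, 25.8%, beside 10.5% of all merged regions. A further 5 were found in 2 replicates, of which 3 were in replicates 2 and 3 and 2 in replicates 1 and 3. The remaining 41 came from 1 replicate, with 15 from replicate 1, 1 from replicate 2 and 25 from replicate 3. The replicates differed in the length of their lists, with 18816, 8096 and 40543 peaks genome-wide, and the depth of the libraries behind them is unknown. Peaks of replicates 2 and 3 began at the same base in 9 of 19 overlapping SOXB pairs (47.4%), whereas no SOXB pair of replicates 1 and 2 or of 1 and 3 did. Genome-wide, 34.5% of pairs from replicates 2 and 3 shared a first base, against 0.922% and 1.63%. Whether the libraries of replicates 2 and 3 share material was not tested. Without replicate 2, 18 SOXB regions were common to the other replicates, and without replicate 3 there were 16. The score of a peak is the negative log10 of its MACS p-value times 10, with 50 as the lowest value kept, and it was compared only within a list, as the percentage of peaks of that list that scored lower (the percentile). Every SOXB gene had at least 1 region in all 3 replicates, a property shared by 23.2% of all protein-coding genes, but the region of Sox3 was lost within 100 kb, by nearest start, at a p-value of 1e-10 and with equal numbers of peaks. The regions numbered 8 at Sox1, 4 at Sox2, 1 at Sox3, 2 at Sox14 and 1 at Sox21. Among all protein-coding genes, 99.9% had fewer such regions than Sox1, 98.9% fewer than Sox2, 93.1% fewer than Sox14 and 76.8% fewer than Sox3 and Sox21, the last being the share of genes with none. Per 100 kb of stretch searched, Sox1 had 2.74, Sox2 0.994, Sox21 0.972, Sox14 0.557 and Sox3 0.249. Sox21 thus stood near Sox2 by density, since its stretch was only 103 kb against 402 kb. Over all protein-coding genes together the value was 0.260, just above that of Sox3. The shares of genes with fewer regions take no account of the length of the stretch. By density, 96.5% of genes stood below Sox1, 89.8% below Sox2, 89.6% below Sox21, 84.8% below Sox14 and 78.5% below Sox3.

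**Figure D1:**
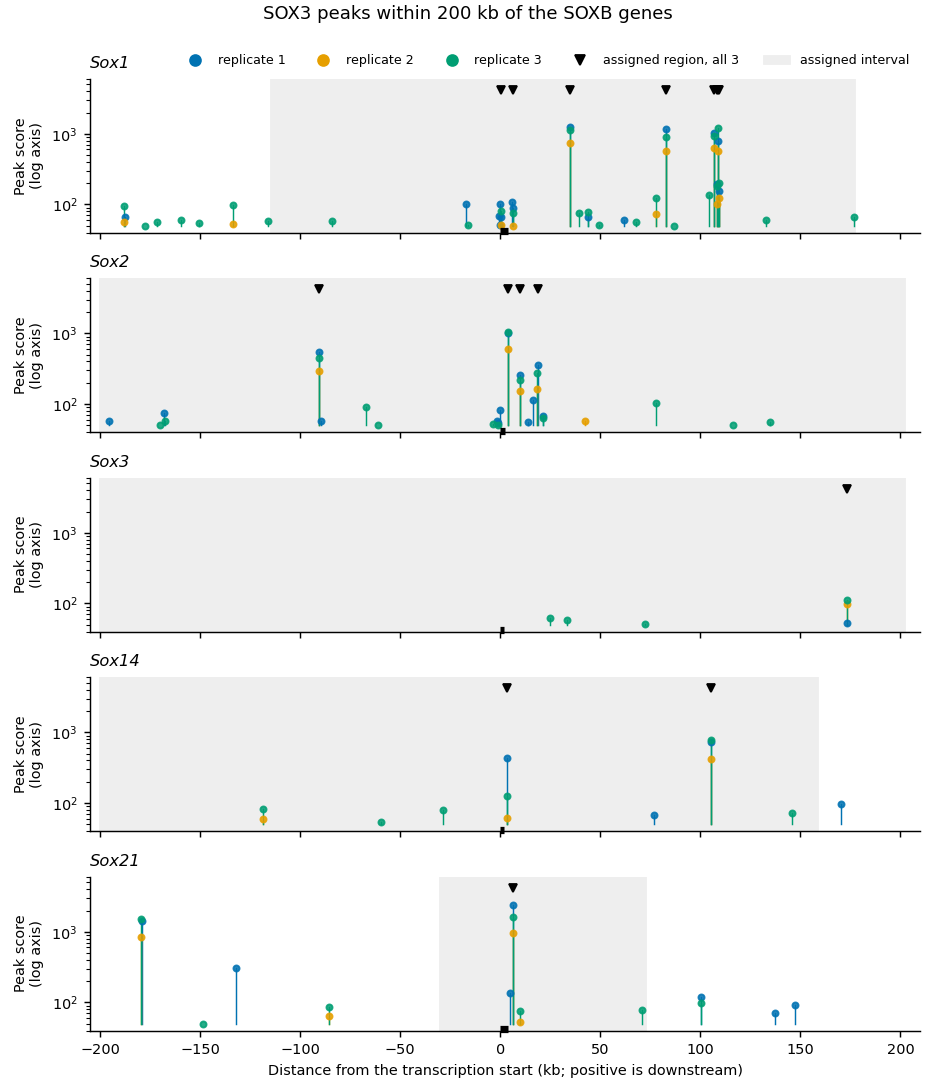
SOX3 peaks around each SOXB gene, by distance from the transcription start in kb (horizontal) and by score on a log axis (vertical), with 1 point per peak coloured by replicate, grey shading for the stretch assigned to the gene, a black bar for the gene body and triangles for assigned regions in all 3 replicates. The triangles lie to the right of the start in 15 of 16 cases, and Sox3 has no peak within 20 kb of its start.

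**Figure D2:**
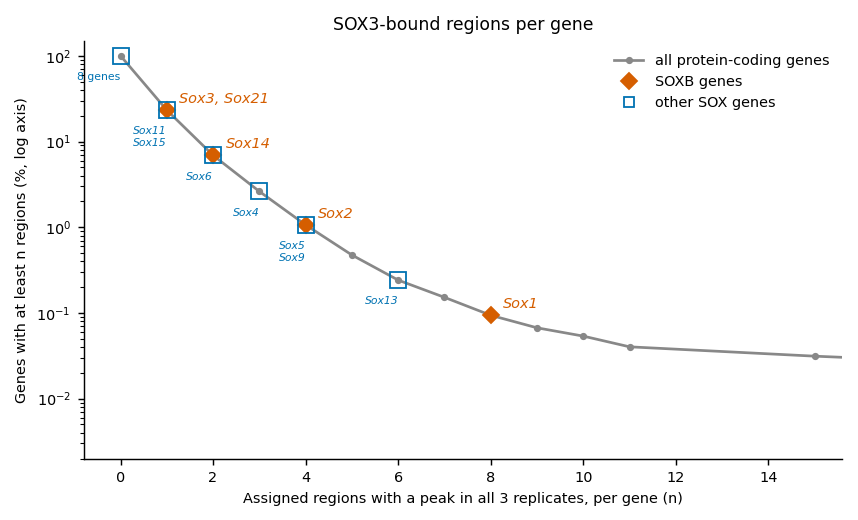
Share of the 22368 protein-coding genes with at least n assigned regions in all 3 replicates (vertical, log axis) against n (horizontal, ending at 15), with SOXB genes as filled diamonds and the other SOX genes as open squares. Sox1 has 8 regions (4 within 100 kb or by nearest start), and Sox13 follows with 6.

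Sox1 encodes the SOXB1 protein that appears with neural induction. It lies on chromosome 8 (chr8:12395519-12399555 of mm9, plus strand), was not named in the GENCODE vM1 annotation and was placed by an exact match of its RefSeq promoter to the reference. A protein-coding entry of that annotation, Gm5607, covers the gene and its surroundings, and regions assigned to Sox1 there overlap Gm5607 as well. Because Gm5607 overlaps the body of Sox1, it did not end the stretch, which ran through it and beyond. Sox1 had 24 regions in the 292 kb searched, of which 8 were in all 3 replicates, 2 in 2 replicates and 14 in 1. None of the 8 lay upstream of the start. They fell into a weak pair at and just beyond the gene, a strong region in Gm5607, a strong region beyond it and a distal cluster.

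The region at the Sox1 start (chr8:12395483-12395802) was 0.124 kb downstream of it by its midpoint and lay over the beginning of the gene. It scored 67.4, 51.9 and 80.8 in replicates 1, 2 and 3, which are percentiles 41.1, 6.30 and 71.1. The region 6.13 kb downstream (chr8:12401514-12401788) scored 88.3, 50.1 and 76.8, at percentiles 57.2, 0.494 and 67.7. Both therefore passed in replicate 2 only just above the lowest score kept. Replicate 1 had 2 further peaks within 1 kb upstream of the Sox1 start, with scores of 99.9 and 69.4, that the other replicates lacked. The RefSeq promoter of Sox1 holds a POU octamer, as do 2.62% of 32851 RefSeq mouse promoters of the same length, and it holds no SOX word.

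The region 34.8 kb downstream of the Sox1 start (chr8:12429898-12430777), which lay over exons of Gm5607, scored 1267, 737 and 1121, at percentiles 99.5, 98.9 and 99.6. The region 82.7 kb downstream (chr8:12477721-12478718) was the widest of the 16, at 998 bp, and scored 1188, 572 and 893. It overlapped no annotated gene. Both stood within the top 5% of all 5358 regions in 3 replicates by their lowest percentile, as did 2 regions of the distal cluster.

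The distal cluster held 4 regions within 3056 bp (chr8:12502084-12505139), an interval between Sox1 and Spaca7, a gene of the sperm acrosome. Its end nearest to Spaca7 was 67.9 kb from the start of that gene, and Spaca7 was the nearest protein-coding start for all 4 regions, so that 4 regions were left to Sox1 when each was given to its nearest start. The region at 107.0 kb scored 1012, 629 and 946, and that at 108.8 kb scored 786, 577 and 1204. Between and beyond them, the region at 108.1 kb scored 196, 102.4 and 181, and that at 109.4 kb scored 155, 125 and 203. Strong and intermediate members thus alternated along the cluster, in the same way in each replicate. Only 5 places in the genome, this one included, had 4 regions in all 3 replicates within a span of that length. Beside the cluster, replicate 3 had a peak at 104.3 kb with a score of 134, the highest of the 25 SOXB regions found only in that replicate. Of the 2 Sox1 regions in 2 replicates, the higher by percentile lay 77.6 kb downstream and scored 72.3 in replicate 2 and 121 in replicate 3.

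Sox2 encodes the SOXB1 protein shared by pluripotent cells and neural progenitors. It lies on chromosome 3 (chr3:34548927-34551383, plus strand) within Sox2ot, a long non-coding transcript, and all 4 of its regions in 3 replicates overlapped Sox2ot. It had 23 regions in all, of which 1 was in 2 replicates and 18 in 1. The region 4.01 kb downstream of the start (chr3:34552640-34553230) was the highest at this gene, with scores of 1004, 608 and 1031 at percentiles 99.1, 98.2 and 99.6. Enhancers downstream of Sox2 are known in pluripotent and neural cells, but their coordinates were not used here and no region was matched to them.

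The other Sox2 regions were of intermediate score. The region 90.8 kb upstream (chr3:34457858-34458431) scored 539, 292 and 453 and was the only upstream region among the 16. The region 9.94 kb downstream (chr3:34558671-34559070) scored 255.9, 153 and 216. The region 18.6 kb downstream (chr3:34567314-34567797) scored 352, 165 and 273. Their lowest percentiles, each in replicate 2, were 92.0, 78.9 and 81.0. At the Sox2 start itself, a peak was found only in replicate 1, with a score of 83.2. The RefSeq promoter of Sox2 holds the SOX core, as do 44.4% of all promoters. The region of Sox2 in 2 replicates lay 21.2 kb downstream, with 67.2 in replicate 1 and 63.3 in replicate 3. The single-replicate regions of Sox2 scored from 50.1 to 114, below every score of its 4 common regions.

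Sox3, the gene of the immunoprecipitated protein, is X-linked (chrX:58144545-58146605, minus strand). It had 4 regions in 402 kb, the fewest per 100 kb of the 5 genes, although 1 in 3 replicates was as many as Sox21 had. That region lay 173 kb downstream (chrX:57972961-57973254) and overlapped the annotated gene Gm14661. It scored 53.03 in replicate 1, 98.4 in replicate 2 and 113 in replicate 3, at percentiles 10.6, 60.4 and 84.8. It was thus near the lowest score kept in 1 replicate. The other 3 Sox3 regions were found only in replicate 3, at 24.9, 33.1 and 72.4 kb downstream, with scores of 62.9, 58.7 and 50.6. No replicate had a peak at the Sox3 promoter or within the gene. Sox3 had 0 regions in 3 replicates once the p-value threshold was lowered to 1e-10, and likewise with the 8096 highest peaks of each list.

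Sox14 encodes a SOXB2 repressor found in subsets of differentiating neurons. It lies on chromosome 9 (chr9:99774644-99776663, minus strand) and had 7 regions in 359 kb, with 2 in 3 replicates, 1 in 2 replicates and 4 in 1. The region 3.54 kb downstream of its start (chr9:99772918-99773328) scored 432 in replicate 1, 60.8 in replicate 2 and 124 in replicate 3. Its percentiles of 95.5, 27.7 and 87.1 were the most uneven of the 16 after those of the Sox3 region. The region 105.3 kb downstream (chr9:99671119-99671600) scored 732, 421 and 780, at percentiles 98.3, 95.8 and 99.2, and so was high in each replicate. Its nearest protein-coding start was that of Cldn18, a tight junction gene, 53.7 kb away. The region in 2 replicates lay 119 kb upstream, with 58.5 in replicate 2 and 82.3 in replicate 3.

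Sox21, the other SOXB2 gene, lies on chromosome 14 (chr14:118632454-118636252, minus strand) and had 4 regions in 103 kb. The region 6.50 kb downstream of its start (chr14:118629371-118630124), beyond the end of the gene, had the highest score of all SOXB regions in replicates 1, 2 and 3, with 2370, 973 and 1625. These scores ranked 23, 47 and 71 within the 3 lists. Including itself, 44 of the 5358 regions in all 3 replicates had a lowest percentile as high as its 99.4. Nearer to the gene, at 4.86 kb, replicate 1 alone had a peak with a score of 134, and at 10 kb replicates 2 and 3 had peaks with scores of 53.7 and 75.5. Sox21 differed from Sox3 in this respect. Each had 1 region in 3 replicates, but by lowest percentile that of Sox21 was among the highest and that of Sox3 among the lowest. Among the 5358 common regions, 2.03% scored below the Sox3 region in replicate 1, 44.1% in replicate 2 and 20.5% in replicate 3.

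**Figure D3:**
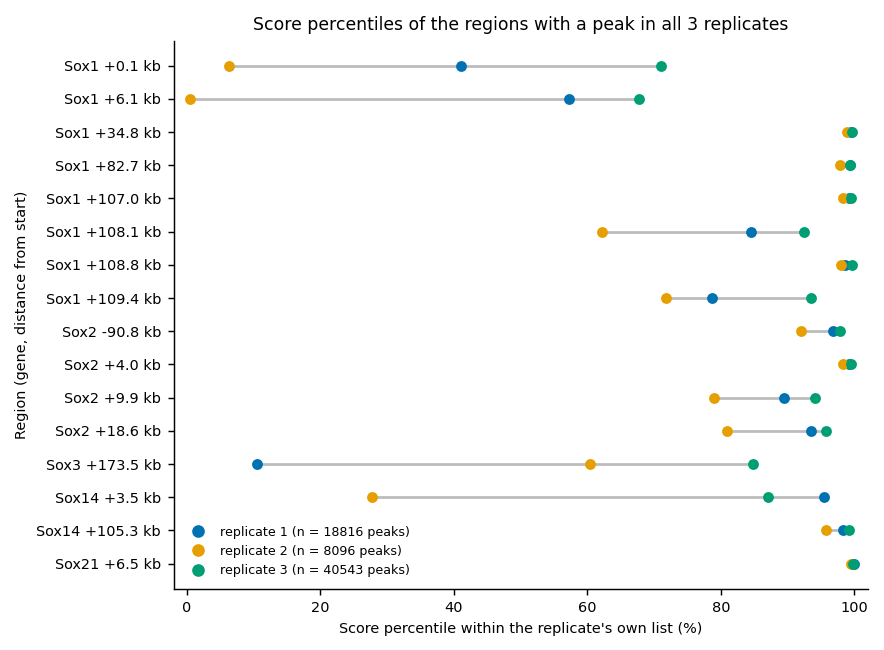
Percentile of the score within its own list (horizontal, %) for each of the 16 SOXB regions in all 3 replicates (vertical, by gene and distance from the start), with 1 point per replicate and a grey line from the lowest to the highest. The strong Sox1 regions, the Sox2 region at 4.01 kb and the Sox21 region have all 3 points at the right edge, whereas the Sox1 regions at 0.124 and 6.13 kb, the Sox3 region and the Sox14 region at 3.54 kb are spread over the axis.

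Across the 16 regions, the median of the lowest percentile was 86.5, beside 61.8 for all 5358 regions in 3 replicates, and 12 of the 16 lay above the latter. Of the 16, 6 stood in the top 5%, at or above a lowest percentile of 96.5, and 4 in the bottom 25%, at or below 37.7. These 4 were the Sox1 pair at 0.124 and 6.13 kb, the Sox3 region and the Sox14 region at 3.54 kb. The order of the regions by score was similar in the 3 lists, with a Spearman coefficient across regions of 0.918 for replicates 1 and 2, 0.915 for 1 and 3 and 0.976 for 2 and 3. Over all 5358 regions these were 0.699, 0.668 and 0.909. The regions share loci and libraries, and the coefficients are given as a description.

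The regions seen in 1 replicate were lower. In replicate 1, the 15 found there alone scored from 53.3 to 134 with a median of 69.4, whereas the 16 common regions had a median of 486 in that list. In replicate 3, the 25 found there alone scored from 50.1 to 134 with a median of 57.0, against 363 for the common regions. In both lists the ranges overlapped, since the weakest common region of replicate 1 had 53.03 and that of replicate 3 had 76.8.

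The SOXB regions in 3 replicates lay mostly downstream of the starts. By midpoint, 15 of 16 lay downstream of the start and 1 upstream, and 1 of the 15 was within the body of its gene. Outside the gene bodies, 14 of 15 were downstream, whereas 45.7% of 5703 such pairs of a gene and a region were downstream over all protein-coding genes. The space searched was nearly even over the 5 genes together, with 814 kb downstream, 52.2%, and 745 kb upstream. It was less even at single genes, with 178 kb downstream against 115 kb upstream at Sox1 and 72.8 kb against 30.1 kb at Sox21. At Sox14 it was 159 kb against 200 kb, and at Sox2 and Sox3 the sides were nearly equal. Without the stop at the next gene, 3 of 18 regions were upstream. The 14 come from 5 loci, and 4 of them from the Sox1 cluster alone. The median distance from the start for the 16 was 58.8 kb, with 1 region within 2000 bp, 6 within 10 kb and 6 beyond 100 kb. For 10 of the 16, the SOXB gene was the nearest protein-coding start. The regions were 275 to 998 bp wide with a median of 483 bp, against 401 bp for all regions in 3 replicates. None held any 50-base sequence that occurs elsewhere in the genome within the stretch shared by the replicates, a property of 70.9% of 5467 shared stretches in the genome.

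Within 300 bp windows at the middle of the shared stretches, the SOX core was present in 13 of the 16 SOXB sites, 81.3% with a 95% Wilson interval of 57.0 to 93.4%. Over all 5343 sites the share was 79.2%, and in windows 2000 bp to each side it was 61.8%. The SOX word with A was in 9 SOXB sites, 56.3%, beside 56.6% of all sites and 43.2% of the flanks. The word with G was in 6, 37.5%, beside 41.6% and 27.3%. With so few SOXB sites the intervals are wide, and for each of these words they hold both the share of all sites and that of the flanks. At least 1 SOX word was present in 14 sites. The 2 without any were the site at the Sox1 start and the Sox2 site at 18.6 kb.

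**Figure D4:**
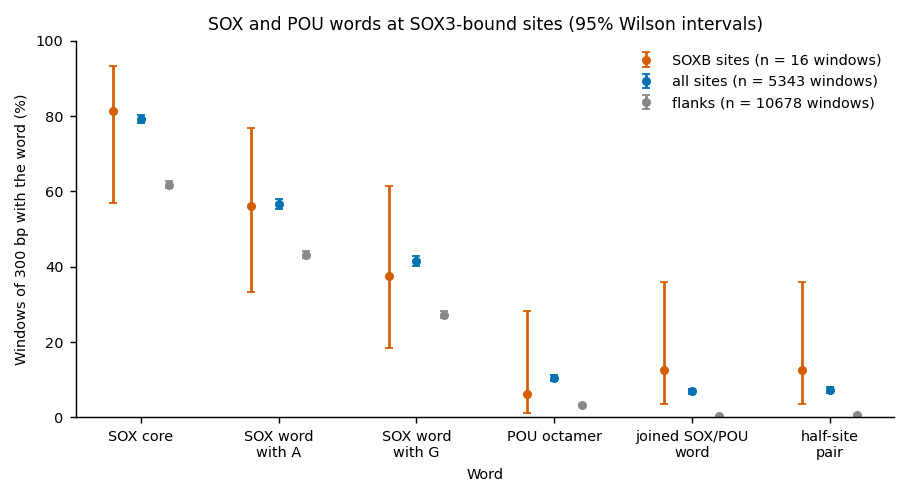
Share of 300 bp windows (vertical, %) that hold each word (horizontal) in the 16 SOXB sites, in all 5343 sites and in 10678 flanking windows, with 95% Wilson intervals that cover counting error only. The SOXB points lie near those of all sites for the SOX words, and the SOXB intervals are the widest throughout.

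The joined SOX/POU word was in 2 SOXB windows, 12.5% with an interval of 3.50 to 36.0%, beside 6.94% of all sites and 0.300% of the flanks, of which the interval holds the former only. The octamer was in 1 SOXB window, 6.25%, beside 10.4% and 3.25%. The first was the Sox1 site at 108.8 kb, where it covers chr8:12504345-12504357 and overlaps the octamer at chr8:12504351-12504358. A SOX word with A lies 15 bp beyond the octamer in the sequence shown. The second was the Sox14 site at 3.54 kb, at chr9:99773136-99773148. When the whole shared stretch was searched, the Sox21 site also held a joined word, at chr14:118629567-118629579, with an octamer at chr14:118629573-118629580. On that basis the joined word was in 3 of 16 SOXB sites, 18.8% with an interval of 6.59 to 43.0%, beside 6.70% of all sites. The pair of half-sites TTGTNATGC was in the Sox2 site at 4.01 kb (chr3:34552973-34552981), 3.5 bp from the middle of the window, and again in the Sox14 site at 3.54 kb, inside its joined word. It was present in 7.26% of all sites and 0.693% of the flanks. The Sox3 site had a SOX word with A but no POU word. A match is a description of the letters and not a measured contact.

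**Figure D5:**
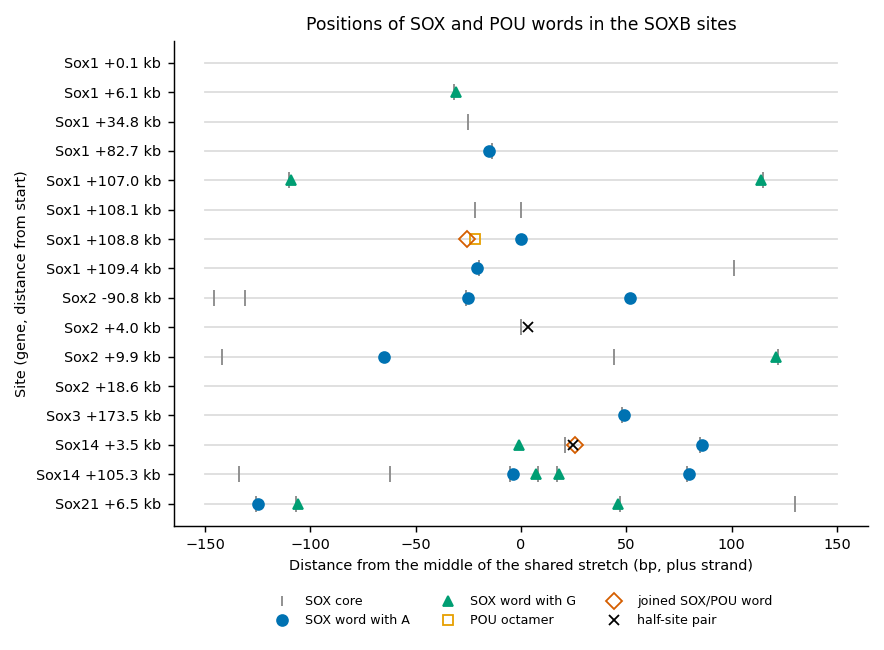
Positions of the words within 150 bp of the middle of the shared stretch (horizontal, bp, plus strand) for each of the 16 SOXB sites (vertical), with 1 symbol per match. The joined words and half-site pairs shown lie within 30 bp of the middle, and the sites at the Sox1 start and 18.6 kb from Sox2 are empty. The joined word of the Sox21 site lies farther from the middle and is not shown.

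Across the other SOX genes, 7 of 15 had a region in 3 replicates, beside 23.2% of all protein-coding genes. All 5 SOXB genes had one, or 4 where the Sox3 region was lost under the alternatives above. In total the 15 had 111 regions, of which 21 were in 3 replicates (18.9%, or 0.476 per 100 kb). The SOXB genes had 1.03 per 100 kb, or 0.632 without Sox1, and all protein-coding genes together had 0.260. The SOXB1 genes had 1.19 per 100 kb, with 8 of their 13 regions at Sox1, whereas Sox2 had 0.994 and Sox3 0.249. The SOXE genes had 0.708, the SOXB2 genes 0.649, the SOXD genes 0.502, the SOXC genes 0.486 and the remaining SOX genes 0.156. Among the relatives, the SOXD genes, which encode SOX proteins without an activation domain, had 6 at Sox13, 4 at Sox5 and 2 at Sox6. The SOXC genes of differentiating neurons had 3 at Sox4, 1 at Sox11 and none at Sox12. Of the SOXE genes of glia and neural crest, Sox9 had 4, and Sox8 and Sox10 had none. Of the remaining genes, Sox15 had 1, and Sox7, Sox17, Sox18, Sox30 and Sry had none. Sox2, with 4, was therefore level with Sox5 and Sox9 by count. Sox1 had the highest count of the SOX genes, but it had 4 within 100 kb or by nearest start, and per 100 kb its 2.74 was close to the 2.68 of Sox13 and below the 9.16 of Sox15, which rested on 1 region in 10.9 kb.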

How the data were processed

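SOX3 ChIP-seq had been performed on 3 replicates of NP cells. Per the methods and the submitters' processing notes, the 50 bp single-end reads were aligned to mm9 with Bowtie 1.0.0, and peaks were called in each replicate with MACS (version not given in the sources used here) against the input, at a p-value of 1e-05 (model fold between 10 and 30, bandwidth 300). As deposited, a score is the negative log10 p-value that MACS gave, multiplied by 10, without normalization between replicates. The lists hold no counts, so depth is unknown. Wilson intervals cover counting error only.

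Peaks of the 3 lists (67455 in total, none beyond the end of its chromosome) were merged where they overlapped by at least 1 bp. Genes came from GENCODE vM1 on NCBIM37, the assembly of mm9, and promoters and the start of Sox1 from RefSeq. The annotated starts of Sox2 and Sox14 differed from the RefSeq ones by 10 and 74 bp, and Sox3 was not matched in the promoter table. Words were searched exactly on both strands, in windows centred on the shared stretches or in the whole stretches, without unknown bases. A window reached beyond its shared stretch where that stretch was shorter. No test was run, since 1 group has peaks. The text names the 5 genes, each of their regions in 3 replicates, the leading region in 2 replicates of each gene, and 2 lists of other factors. Members and lists were chosen with earlier results of these data known. Regions found in 1 replicate, and those beyond the next gene, are named where a sentence singles them out, chosen after their values were seen. In simulated lists over 200 genes, 913 of 913 common regions and 12 of 12 words were recovered, with 0 genes miscounted. The tools were Python 3.11.15, pysam 0.24.0, numpy 2.4.6, numba 0.67.0, matplotlib 3.10.9 and scipy 1.17.1.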

Additional observations from a re-analysis of the deposited data

How the results depend on the processing

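Of the recomputed counts and shares, 83 stayed within 1.5 times of the reported count or within its interval, whereas 25 did not. Within 100 kb of the genes, 10 SOXB regions in 3 replicates were counted, with 4 at Sox1, 0 at Sox3 and 1 at Sox14, and 21.2% of all genes had such a region (24.8% within 500 kb). Assignment to the nearest protein-coding start also gave 10, with 4, 0 and 1 at these genes. Without a stop at the next gene, Sox21 had 2. At a p-value of 1e-10 or less, 21 SOXB regions were left, of which 12 (57.1%, beside 25.4% of all regions) were in 3 replicates, with 0 at Sox3 and 1 at Sox14, and 12.7% of genes had one. A reciprocal overlap of 50% gave 20.9% of genes. With the 8096 highest peaks of each list, Sox3 had 0, the SOXB share was 48.1% (29.3% of all regions) and 17.9% of genes had a region. Leaving out 1 replicate gave 16 to 19 SOXB regions, 1 to 2 at Sox21, SOXB shares from 29.5% (without replicate 2) to 43.2% (without replicate 3), and 23.5% to 31.6% of genes. Over all regions, these shares were 15.5% and 25.6%. The single region of Sox3 thus rested on its window and on peaks of lower score, that of replicate 1 being 53.03. No word share moved beyond its tolerance. That tolerance was the interval from 16 sites, for the joined word 3.50 to 36.0%, so the check could hardly fail. No paired analysis was possible because only 1 group has peak lists.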

Other observations

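Regions in all 3 replicates were also found near most of the listed partner factors of SOX proteins and regulators of the early neural state. Of 8 such genes, 6 had at least 1 region in all 3 replicates, beside 23.2% of all protein-coding genes, with 14 of their 56 regions (25%) in 3 replicates and 0.797 per 100 kb searched, beside 0.260 over all protein-coding genes. Pou3f1, a POU factor of neural induction, had 3, and Pou3f3 had 1, whereas Pou3f2 and Pou3f4 had none. Pax6, a regulator of dorsal forebrain progenitors, and Otx2, a regulator of the anterior neural plate, had 3 each. Zic2 had 2, and so did Pou5f1, the POU factor of pluripotent cells. As with the SOXB genes, the share of regions in 3 replicates was above the 10.5% of all merged regions. No test was made of these values.

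Within 200 kb of the SOXB genes but beyond the next protein-coding gene, 2 more regions were in all 3 replicates. The region 179 kb upstream of Sox21 (chr14:118815215-118816073) scored 1424, 836 and 1527, at percentiles 99.6, 99.1 and 99.8, and was second only to the region 6.50 kb downstream of Sox21 by its lowest percentile among the regions within 200 kb of a SOXB gene. The gene between it and Sox21 is Gm9376, whose start was 149 kb away and was the nearest protein-coding start, and the region overlapped no annotated gene. The region 188 kb upstream of Sox1 (chr8:12207560-12207792), beyond A230072I06Rik, scored 65.8, 57.2 and 95.8. Neither is among the 16 regions assigned to the SOXB genes.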
